A study of Mus musculus with 4 samples.

Results

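The genes described here are those of glycolysis and of the cellular response to low oxygen, followed in cultured mouse keratinocytes, the epithelial cells of the epidermis. A list of 34 genes was matched by gene symbol to the annotation of the array, and 29 were read by a probe set that names them alone, out of 12393 genes read in this way. Gapdh and Bnip3l were read only by probe sets that also name pseudogenes or other genes, so their values are not given, and Gpi1, Eno1 and Ankrd37 were not analysed here. Of the 29 genes, 27 reached the median level of the whole table (an RMA intensity of 20.04) on at least 1 array, as did 7461 of all genes, and each of the 27 did so on all 4 arrays. Car9 (a surface carbonic anhydrase, at most 10.6) and Pfkfb3 (a kinase that makes an activator of phosphofructokinase, at most 19.04) stayed below that level, and the member next above it, P4ha1, reached 36.4.

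The cells were primary tail skin keratinocytes of the congenic strain C57BL/6, all from mice with a floxed Prdm1 gene, which encodes the transcriptional repressor Blimp-1. Control cells had no CreER, and CKO cells had CreER, a Cre recombinase that 4-hydroxytamoxifen (4OHT) activates. Cultures of both genotypes received 4OHT, or ethanol (EtOH) as the solvent, between day 1 and day 3, and cells were taken on day 5. This makes 4 groups of 1 array, named here control EtOH and control 4OHT, and likewise CKO EtOH and CKO 4OHT, of which the last alone had both CreER and its inducer. Unless said otherwise, 4 levels in a row are given in this order. The promoter that drives CreER, the part of Prdm1 that is floxed, the age of the mice and the number of mice behind each culture are not given in the sources used. With 1 array a group there is no estimate of error and no test, so the values below describe these 4 arrays. Control and CKO cultures also came from different mice, and animal and genotype cannot be told apart.

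Glycolysis splits glucose into pyruvate in the cytosol, and cells that send the pyruvate on to lactate can make ATP without oxygen. When oxygen is short, the prolyl hydroxylases of the Egln family no longer mark the transcription factor subunit Hif1a for breakdown, and Hif1a then raises transcription of glucose transporters, glycolytic enzymes, Pdk1, Bnip3, Vegfa and Egln3 itself. The epidermis has no blood vessels of its own, and glycolysis with lactate output is a main energy source of its keratinocytes.

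As a check of the labels, the intensity of Prdm1 was 20.7, 52.4, 17.0 and 6.43. It was lowest in CKO 4OHT, highest in control 4OHT, and under the level of 20.04 in both CKO cultures. Esr1, which reads the estrogen receptor gene, was at 44.4 and 54.3 in the CKO cells against 11.3 and 18.2 in the controls. The keratinocyte markers were bright, with a summed intensity between 12490 and 13188 for 7 of 8 listed genes, and all 7 reached the level filter. The summed levels of other cell types were low: 87.3 to 96.7 for fibroblasts, 127 to 155 for melanocytes, 89.97 to 96.3 for leukocytes and 103 to 112 for endothelial cells. Of these genes, 2 of 8, 4 of 7, 2 of 8 and 1 of 6 reached the level filter. The sums were highest in CKO 4OHT for fibroblast, melanocyte and endothelial genes, the last only at 112.0 against 111.3 in CKO EtOH. Of the fibroblast genes only Fbln2 was highest there, at 26.6 against 14.7 to 20.4, and Col1a1 was lowest. Of the endothelial genes, Egfl7 (77.2 against 62.1 to 70.8) and the dim Tek were highest there, and Kdr and Emcn lowest. The sums of keratinocyte and leukocyte genes were lowest in CKO 4OHT. Ptprc and Pecam1, which define leukocytes and endothelial cells, were at most 4.73 and 11.3. Dct, a melanocyte enzyme, was at 40.3 in CKO 4OHT and at 26.5 to 27.5 elsewhere. Of the other melanocyte genes, Tyrp1, Pmel and Kit were also highest there, by less, and Sox10, Tyr and Mitf lay inside the range of the other arrays. Krt1, a keratin of differentiating cells, was at 21.8 in CKO 4OHT against 136 to 246, but its partner keratin Krt10 was at 249, inside the 209 to 352 of the other arrays. Sfn, a keratinocyte protein also known as stratifin, was highest in CKO 4OHT, at 941 against 679 to 728. Krt5 (3298 against 3432 to 3774), Krt14 (6437 against 6587 to 6663) and Trp63 (320 against 364 to 407) were lowest there. Mki67, a marker of dividing cells, was at 126 against 230 to 281. Their part in the results below was not tested.

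In the CKO 4OHT culture a subset of these genes was lower, while Hk1, Hk2, Aldoa, Pgam1, Pkm and Ldha lay within 1.5-fold of every other array. The genes at least 2-fold lower than in CKO EtOH were the glucose transporter Slc2a1, the aldolase Aldoc and the mitochondrial protein Bnip3, which is 3 of 27 members, where 1.86% of all measured genes were lower by as much. Against control 4OHT, the 3 members at least 2-fold lower were the phosphofructokinase Pfkp, Aldoc and Bnip3, where 2.24% of all measured genes were. No member was 2-fold higher in either comparison, where 1.78% and 1.45% of all measured genes were. At 1.5-fold, 8 of 27 members were lower against CKO EtOH (5.47% of all measured genes) and 8 against control 4OHT (6.04%), and again none was higher (5.67% and 6.65%). Both comparisons use the CKO 4OHT array, so their agreement is no independent evidence. The members were also chosen with earlier results of these data known, so these shares are a description only.

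The median log2 difference of the 27 members was -0.27 against CKO EtOH, with a range from -1.25 to 0.28, beside a median of 0.01 over all measured genes. Against control 4OHT it was -0.37, with a range from -1.87 to 0.38, beside 0.01. The CKO 4OHT array held the lowest value for 14 of the 27 members (31.1% of all measured genes) and the highest for 3, Hk2, Pgam1 and Pkm (31.6%). The control 4OHT array held the highest value for 13 members (23.9%) and the lowest for 1, Pgam1 (30.8%). Bnip3 alone lay at least 2-fold below all 3 other arrays in CKO 4OHT, where 1.09% of all measured genes did, and no member lay as far above (0.751%). It passed that line narrowly, at -1.01 from the nearest array on the log2 scale, and did not pass it once the arrays were centred on the median of their measured genes.

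**Figure D1:**
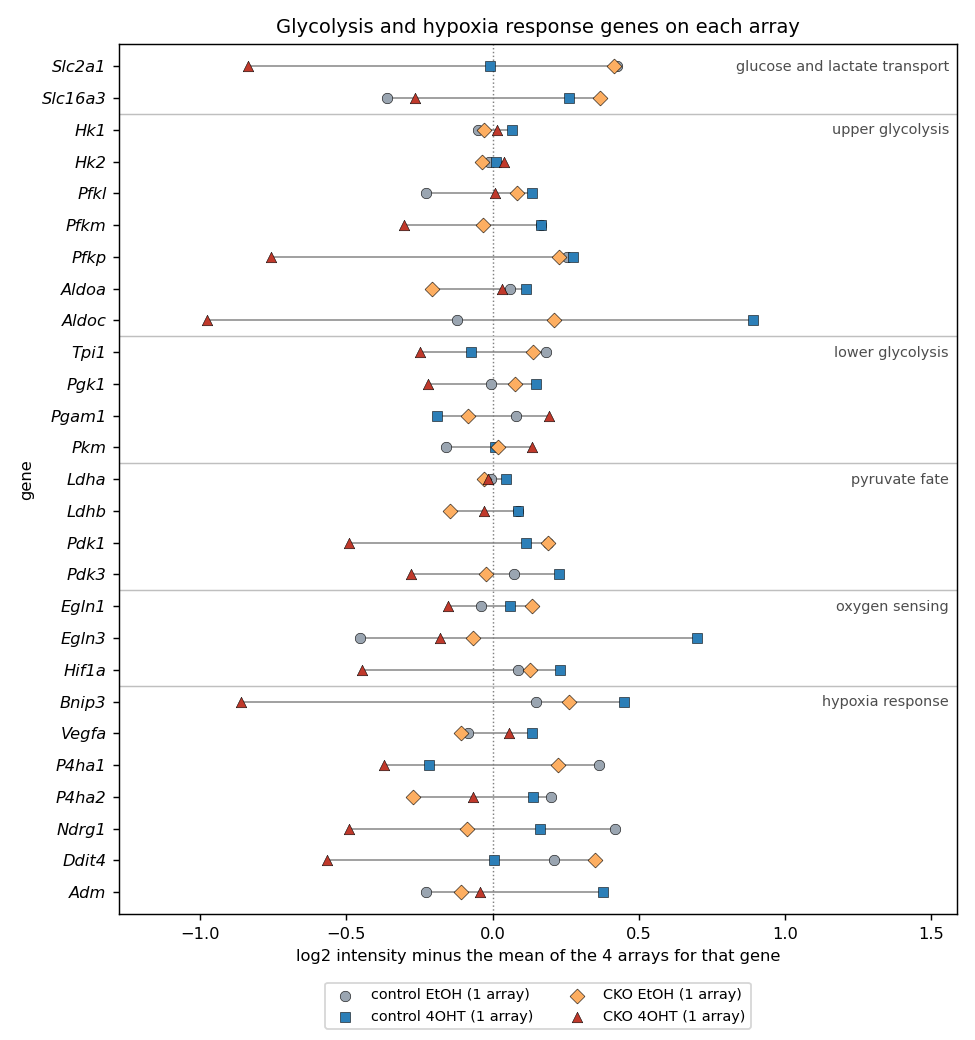
Log2 intensity of each of the 27 measured members on the 4 arrays, minus the mean of the 4 arrays for that gene, with genes on the vertical axis grouped by role and 1 point for each array. The red triangles of CKO 4OHT lie far to the left for Slc2a1, Pfkp, Aldoc and Bnip3, and close to the other arrays for Hk1, Hk2, Aldoa and Ldha.

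**Figure D2:**
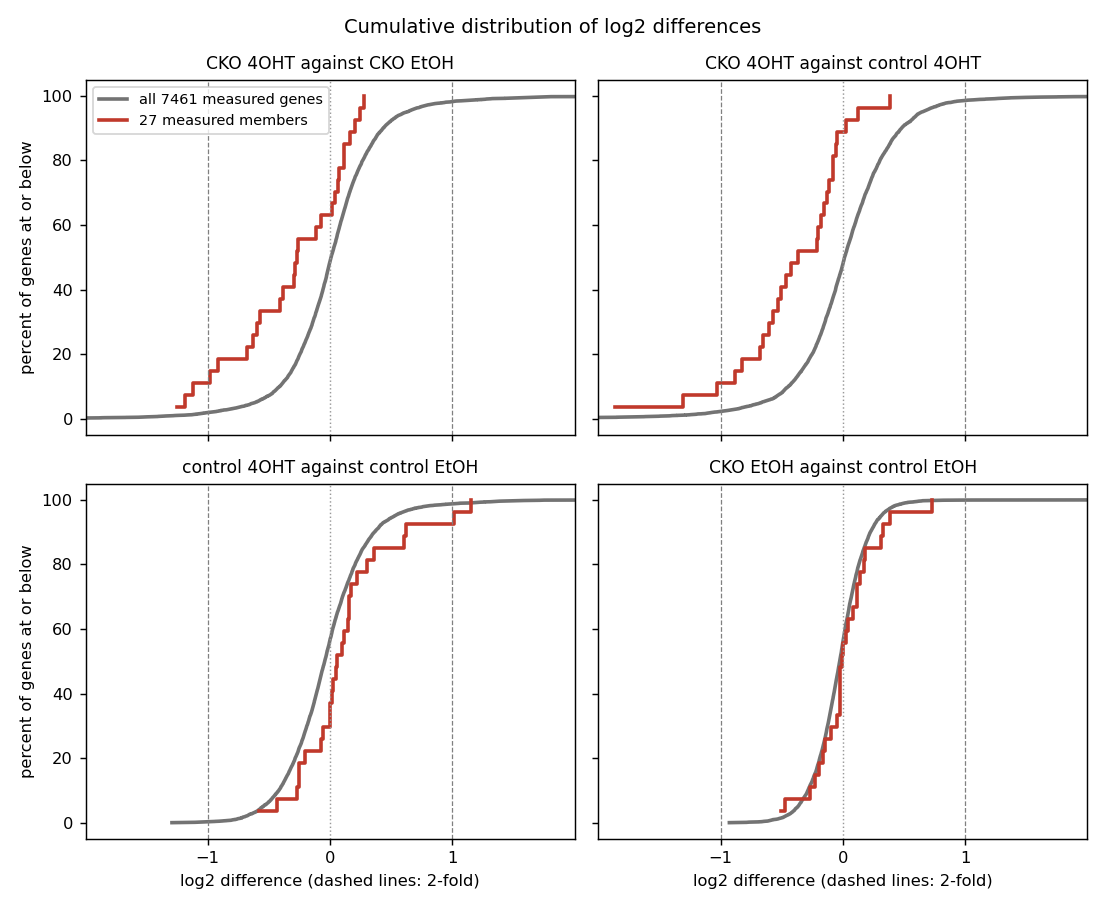
Cumulative share of genes, in percent, against the log2 difference in each of the 4 comparisons, for all 7461 measured genes (grey) and the 27 measured members (red). The members' curve lies to the left of the grey one against CKO EtOH and control 4OHT, with medians of -0.27 and -0.37, and near it for CKO EtOH against control EtOH, with a median of -0.01.

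The stretches just before the transcription starts of the 4 genes that were 2-fold lower in either comparison are shown with that of Ldha, lactate dehydrogenase A, whose level did not differ by more than 1.05-fold between any 2 arrays. Each is the 250 bases before the upstream-most start in RefSeq (GRCm38.p6), read along the strand of the gene. Capitals mark ACGTG and GCGTG, the core letters of the hypoxia response element that Hif1a binds, and their reverse complements CACGT and CACGC.
Slc2a1 promoter, chr4:119108495-119108744, plus strand: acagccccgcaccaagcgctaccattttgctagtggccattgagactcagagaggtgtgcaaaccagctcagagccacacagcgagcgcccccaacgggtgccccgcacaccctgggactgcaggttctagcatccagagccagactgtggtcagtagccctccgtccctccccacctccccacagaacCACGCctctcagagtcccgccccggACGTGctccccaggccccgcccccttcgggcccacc
Pfkp promoter, chr13:6648772-6649021, minus strand: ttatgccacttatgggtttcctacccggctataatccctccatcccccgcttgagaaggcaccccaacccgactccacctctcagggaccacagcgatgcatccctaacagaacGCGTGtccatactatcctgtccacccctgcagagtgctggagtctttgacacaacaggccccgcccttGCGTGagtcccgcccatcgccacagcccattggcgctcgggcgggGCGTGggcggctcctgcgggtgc
Aldoc promoter, chr11:78322823-78323072, plus strand: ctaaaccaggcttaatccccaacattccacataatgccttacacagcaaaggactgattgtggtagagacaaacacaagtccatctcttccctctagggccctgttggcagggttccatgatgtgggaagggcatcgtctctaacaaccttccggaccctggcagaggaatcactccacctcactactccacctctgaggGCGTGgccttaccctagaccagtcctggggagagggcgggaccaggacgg
Bnip3 promoter, chr7:138909507-138909756, minus strand: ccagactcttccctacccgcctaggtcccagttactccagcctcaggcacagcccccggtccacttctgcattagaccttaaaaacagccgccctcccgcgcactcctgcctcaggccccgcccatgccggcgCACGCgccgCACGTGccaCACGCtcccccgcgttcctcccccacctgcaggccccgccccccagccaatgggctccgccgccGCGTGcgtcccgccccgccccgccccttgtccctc
Ldha promoter, chr7:46845554-46845803, plus strand: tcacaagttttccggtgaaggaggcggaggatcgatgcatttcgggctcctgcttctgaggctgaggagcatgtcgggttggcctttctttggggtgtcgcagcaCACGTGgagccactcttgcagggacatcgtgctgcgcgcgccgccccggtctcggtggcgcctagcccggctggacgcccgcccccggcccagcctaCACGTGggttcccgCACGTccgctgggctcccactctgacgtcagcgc
Slc2a1 had 2 such places, the nearer one 36 bases before the start, and Pfkp had 3, at 136, 68 and 23 bases. Aldoc had 1, at 50 bases, and 1 before its other RefSeq start, while Bnip3 had 4, counting overlapping matches once. Ldha had 3. Over all 32851 windows of this length in the table, 38.6% held at least 1 match, and 57.8% did among windows of measured genes. Of the 37 windows that belong to 26 measured members, 30 held a match (81.1%), among them those of Hk2 and Pgam1 and 1 of the 2 windows of Hk1, not its upstream-most one. These 3 genes were not lower by 1.5-fold anywhere. A match is a run of letters and does not show that Hif1a was bound there.

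Among the transporters, Slc2a1, which brings glucose into the cell, was at 570 with EtOH and 422 with 4OHT in control cells, and at 566 and 238 in CKO cells. The last value was the lowest, 2.38-fold below CKO EtOH (log2 difference -1.25) and 1.77-fold below control 4OHT (-0.83). It was the 76th lowest of 7461 differences against CKO EtOH. Slc2a1 was also 1.35-fold lower with 4OHT in control cells by this probe set (-0.43). Its other probe sets differed by -0.64 and 0.22 there. All 3 Slc2a1 probe sets were lower in CKO 4OHT, by -1.25, -1.03 and -0.80 against CKO EtOH. In the same order they gave -0.83, -0.45 and -0.80 against control 4OHT. Slc16a3, which carries lactate out of the cell, was at 25.6, 39.4, 42.3 and 27.3. Its values in control EtOH and in CKO 4OHT were both low.

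The hexokinases, which trap glucose as its phosphate, were even across the arrays. Hk1 was at 141, 153, 143 and 148 and Hk2 at 119, 121, 117 and 123, a spread of at most 1.09-fold. A second Hk1 probe set was at 73.9 in CKO 4OHT against 50.0 to 53.3 elsewhere, 0.56 higher against CKO EtOH, so the reading of Hk1 depends on the probe set.

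Phosphofructokinase, the committed step of glycolysis, has liver (Pfkl), muscle (Pfkm) and platelet (Pfkp) forms, and they differed. Pfkp was at 267 and 271 in the control cultures with EtOH and 4OHT, at 262 in CKO EtOH, and at 133 in CKO 4OHT. The first 3 values lie within 1.03-fold of each other, and the CKO 4OHT value was 1.98-fold below CKO EtOH (-0.98) and 2.04-fold below control 4OHT (-1.03). A second Pfkp probe set gave -0.70 and -1.10. Pfkl was at 49.6, 63.8, 61.6 and 58.4 on the 4 arrays, inside the range of the others in CKO 4OHT. A second Pfkl probe set was highest in CKO 4OHT, at 49.4 against 43.7 to 48.1. Pfkm was at 48.8, 48.8, 42.6 and 35.3, lowest in CKO 4OHT, at -0.27 against CKO EtOH.

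The aldolases, which split fructose bisphosphate, also parted. Aldoc was at 64.8 with EtOH and 131 with 4OHT in control cells, and at 81.5 and 35.8 in CKO cells, the widest spread of the measured members at 3.65-fold. It was highest with 4OHT in cells without CreER and lowest with 4OHT in cells with CreER. The differences were -1.19 against CKO EtOH, -1.87 against control 4OHT and 1.01 for control 4OHT against control EtOH. The other Aldoc probe set was at most 5.2 and does not resolve the gene. Aldoa, the form found in most tissues, was at 970, 1007, 805 and 952 by the probe set used, with the low value in CKO EtOH. Its other 3 probe sets differed by 0.09 to 0.35 between CKO 4OHT and CKO EtOH, and each was highest in CKO 4OHT. Against control 4OHT they were above 0, by 0.02 to 0.21, where the probe set used was at -0.08. All 4 Aldoa probe sets are of a design that allows cross-hybridisation.

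The enzymes of the later steps differed little. Tpi1, triose phosphate isomerase, was at 1055, 884, 1022 and 782 and Pgk1, phosphoglycerate kinase, at 1383, 1540, 1463 and 1192. Both were lowest in CKO 4OHT, with differences of -0.39 and -0.30 against CKO EtOH, and all their probe sets were below 0 in both comparisons of CKO 4OHT. Pgam1, phosphoglycerate mutase, was at 313, 260, 280 and 339 and Pkm, pyruvate kinase, at 770, 867, 872 and 945. Both were highest in CKO 4OHT, by 0.28 and 0.12 against CKO EtOH. No member of this group reached 1.5-fold in any of the 4 comparisons.

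Pyruvate can be turned to lactate by Ldha and Ldhb or enter the mitochondria, where Pdk1 and Pdk3 switch off pyruvate dehydrogenase. Ldha was at 1045, 1083, 1028 and 1038 and Ldhb at 170, 170, 145 and 157. By these probe sets neither was the lowest in CKO 4OHT, but 2 of the 4 Ldhb probe sets were, at 128 against 152 to 188 and at 122 against 126 to 154. Pdk1 was at 117, 111, 117 and 73.2, with 3 arrays within 1.05-fold of each other and CKO 4OHT 1.60-fold below CKO EtOH (-0.68) and 1.52-fold below control 4OHT (-0.60). Its second probe set gave -0.74 and -0.69. Pdk3 was at 65.2, 72.5, 61.1 and 51.0, lowest in CKO 4OHT, at -0.26 against CKO EtOH.

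Of the oxygen sensing genes, Hif1a itself was at 621 and 687 in control cells with EtOH and 4OHT, and at 639 and 429 in CKO cells. The level in CKO 4OHT was 1.49-fold below CKO EtOH (-0.57) and 1.60-fold below control 4OHT (-0.68). The other 2 Hif1a probe sets that reached the level filter were lower too, by -0.74 and -0.92 against CKO EtOH and by -1.18 and -0.75 against control 4OHT. For control 4OHT against control EtOH the used probe set differed by 0.14 and these by 0.69 and -0.30, so they disagreed in sign there. These are transcript levels, and Hif1a activity is set mainly by the stability of its protein, which was not measured. Egln1, the main oxygen sensor, was at 98.6, 105, 111 and 91.1, a spread of 1.22-fold. Egln3, an enzyme of the same family and a Hif1a target, was at 32.7, 72.8, 42.7 and 39.5, so that control 4OHT stood above the other arrays. With 4OHT in control cells it was 1.15 higher, and 0.63 by its second probe set.

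Among the response genes, Bnip3, which promotes removal of mitochondria, was at 123 and 152 in control cells with EtOH and 4OHT, and at 133 and 61.4 in CKO cells. In CKO 4OHT it was 2.17-fold below CKO EtOH (-1.12) and 2.48-fold below control 4OHT (-1.31), by the single probe set that reads it. Ddit4, an inhibitor of mTOR signalling, was at 522, 452, 575 and 305, lowest in CKO 4OHT at 1.89-fold below CKO EtOH (-0.92) and 1.48-fold below control 4OHT (-0.57). Vegfa, the growth factor of blood vessels, was at 48.5, 56.4, 47.6 and 53.4, and CKO 4OHT lay inside the range of the other arrays. A second Vegfa probe set, near the level filter, was highest in CKO 4OHT, at 21.7 against 16.1 to 19.6. Adm, the vasodilator peptide adrenomedullin, was at 71.3, 108, 77.4 and 80.9, highest in control 4OHT.

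The remaining response genes did not share 1 pattern. P4ha1, a collagen prolyl hydroxylase, was at 36.4 and 33.0 in the EtOH cultures and 24.3 and 21.9 in the 4OHT cultures of control and CKO cells, so it was lower with 4OHT in both genotypes, by -0.58 and -0.59. Its paralog P4ha2 was at 41.1, 39.5, 29.7 and 34.2, lower in both CKO cultures. Ndrg1, a stress-induced protein of epithelia, was at 204, 171, 144 and 108 by its brightest probe set, a design that allows cross-hybridisation. With 4OHT in control cells that probe set differed by -0.26, where the other 4 were 0.44 to 0.70 higher. All 5 were lower in CKO 4OHT than in control 4OHT, from -0.87 to -0.37.

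**Figure D3:**
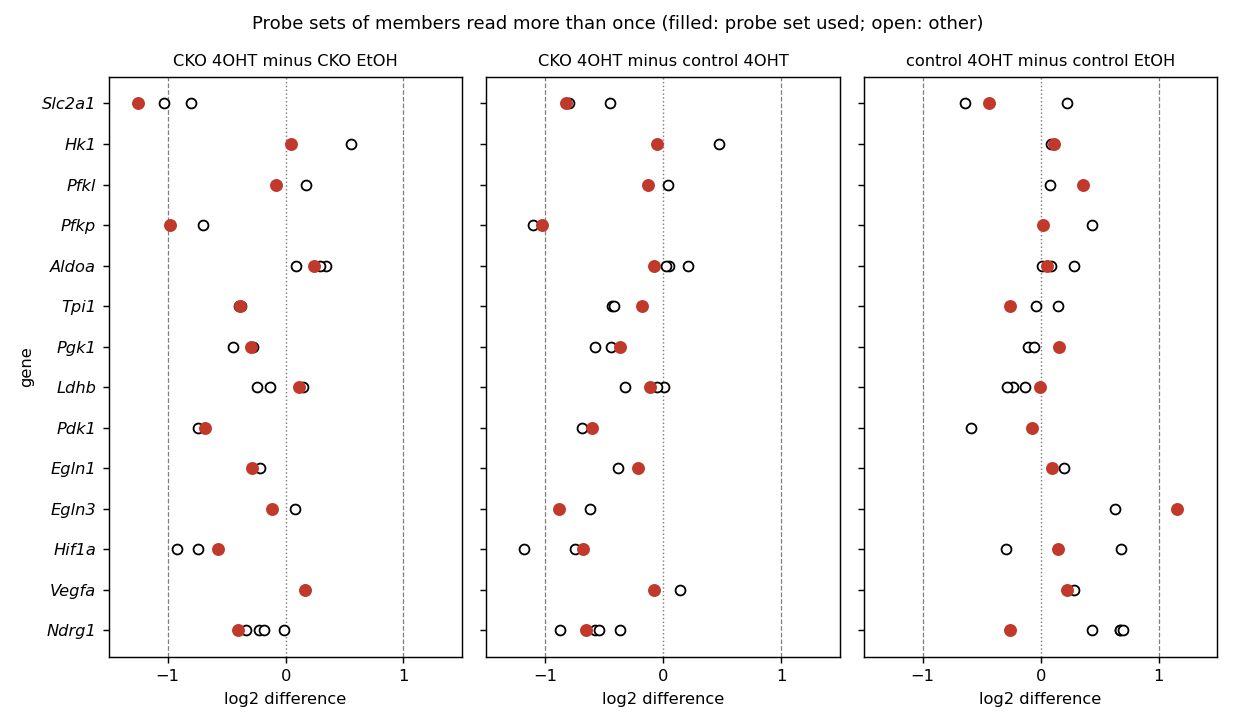
Log2 difference of every probe set that reached the level filter, for the 14 members with 2 or more of them, in 3 comparisons; filled points are the probe sets used and open points the others. The probe sets of Slc2a1, Pfkp, Pdk1 and Hif1a all lie below 0 in both comparisons of CKO 4OHT. For control 4OHT minus control EtOH, those of Ndrg1, Slc2a1, Hif1a, Tpi1 and Pgk1 lie on both sides of 0.

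Without CreER, 4OHT went with small differences and a few higher members. Aldoc (2.02-fold) and Egln3 (2.22-fold) were at least 2-fold higher in control 4OHT than with EtOH, which is 2 of 27 members where 1.27% of all measured genes were. No member was 2-fold lower, where 0.241% of all measured genes were. At 1.5-fold, Slc16a3 (1.54-fold) and Adm (1.52-fold) joined them, which made 4 members (3.95%). The median of the members was 0.05, beside -0.04 for all measured genes. With the median of all probe sets of a gene in place of the brightest, no member was 2-fold higher, since Aldoc then differed by 0.70 and Egln3 by 0.89. Between CKO EtOH and control EtOH, the cultures without 4OHT, no member differed by 2-fold (0.0536% of all measured genes were that much higher and 0% lower), and the members' median was -0.01 beside -0.03. Slc16a3 was the largest of these differences, 1.65-fold higher in CKO EtOH.

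The difference between 4OHT and EtOH cultures in CKO cells was set against the same difference in control cells, a pair of comparisons that share no array. It was lower in CKO cells by at least 2-fold for 5 of 27 members, where 2.9% of all measured genes were, and higher by as much for none, where 2.75% were. The 5 were Aldoc (-2.20), Bnip3 (-1.42), Egln3 (-1.27), Slc16a3 (-1.25) and Pfkp (-1.00). Only Aldoc and Bnip3 stayed past 2-fold under every alternative run, since with a pseudocount of 16 the gap was -0.95 for Egln3, -0.84 for Slc16a3 and -0.92 for Pfkp, and with the median of all probe sets it was -0.91 for Egln3. For Egln3 the value came from the higher level in control 4OHT, since in CKO cells it differed by -0.11, and for Pfkp from CKO cells, since in control cells it differed by 0.02. The median over the members was -0.38 beside 0.04 for all measured genes. P4ha1 (-0.01) and Ldha (-0.04) had nearly the same difference in both genotypes.

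**Figure D4:**
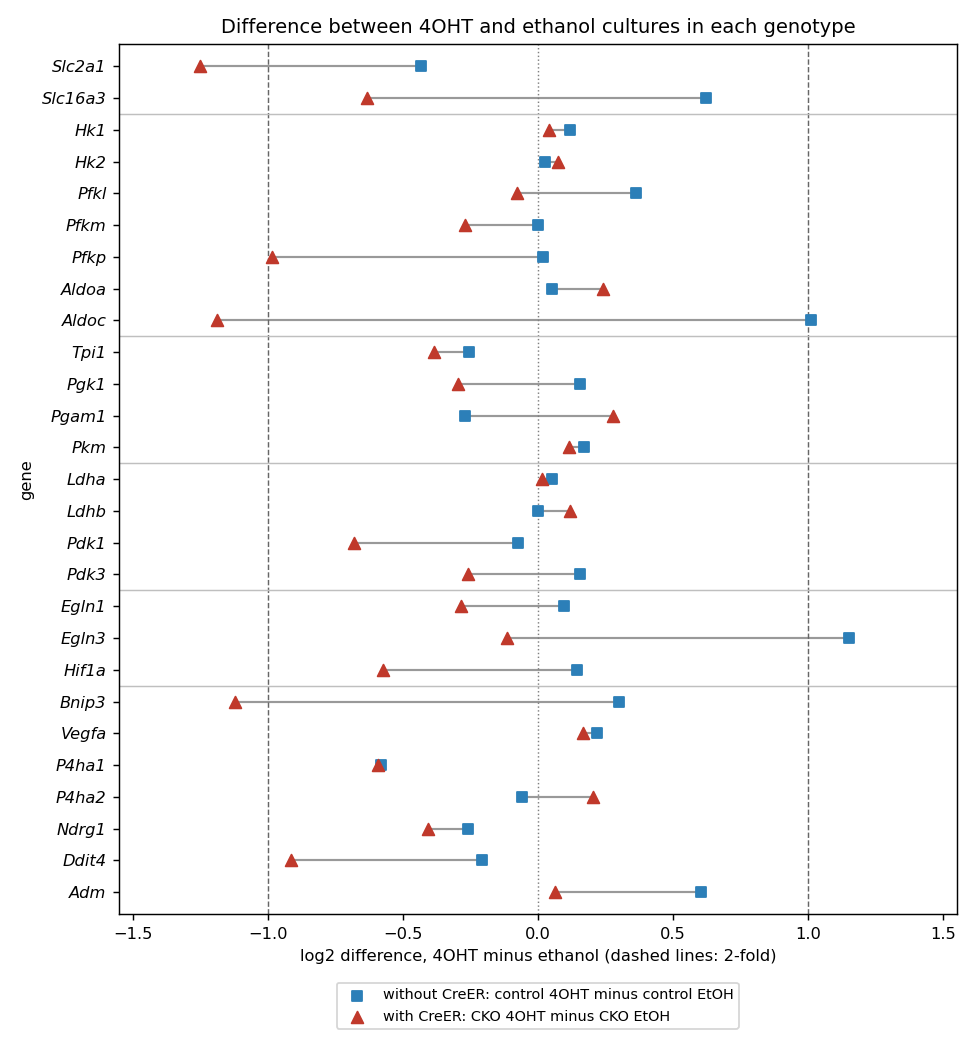
Log2 difference between 4OHT and ethanol cultures for each of the 27 measured members, without CreER (blue squares) and with CreER (red triangles), each from 1 pair of arrays, with dashed lines at 2-fold. The widest gap is that of Aldoc, from 1.01 to -1.19, and the points of P4ha1, Hk2 and Ldha nearly coincide.

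Other genes of the same pathways were taken from separate lists, which like the members were chosen with earlier results of these data known. Of 39 further hypoxia response genes, 27 were measured, with a median of -0.03 against CKO EtOH. There 4 were at least 2-fold higher (1.78% of all measured genes) and 1 lower (1.86%). Plod2, a lysyl hydroxylase of collagen, was at 68.5 in CKO 4OHT against 13.3 to 22.1, higher by 1.80 against CKO EtOH and 2.36 against control 4OHT. A second Plod2 probe set gave 0.84 and 1.05. Tfrc, the transferrin receptor, was at 226 against 69.7 to 112, higher by 1.62 and 1.70, and Hmox1, heme oxygenase, was at 205 against 70.5 to 118, higher by 1.54 and 0.80. Edn1, the vasoconstrictor endothelin, was at 115 against 50.8 to 80.4, higher by 1.02 and 0.52. Vldlr, a lipoprotein receptor, was the lower gene, at 41.5 against 88.8 to 134, with -1.28 and -1.10. A second Vldlr probe set that reached the level filter gave -0.86 and -0.62, short of 2-fold. Genes known to respond to low oxygen thus lay in both directions in CKO 4OHT, Slc2a1 and Bnip3 below and Plod2 and Tfrc above every other array.

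Of 25 further glycolysis and lactate genes, 11 were measured, and Gapdhs, the testis form of glyceraldehyde phosphate dehydrogenase, was the 1 that differed by 2-fold. It was at 162 in CKO 4OHT against 65.1 to 72.7, higher by 1.32 against CKO EtOH and 1.23 against control 4OHT. Of all measured genes, 1.78% and 1.45% were 2-fold higher in these comparisons, and 1.86% and 2.24% lower. The median of this list was -0.06 against CKO EtOH and 0.17 against control 4OHT. Against control 4OHT, 2 of the further hypoxia genes were 2-fold higher (1.45%), Plod2 and Tfrc, and Vldlr was lower (2.24%), with a median of -0.10. Between control 4OHT and control EtOH, and between the 2 EtOH cultures, none of the genes on these lists differed by 2-fold. Of all measured genes, 1.27% and 0.0536% were higher by as much there, and 0.241% and 0% lower.

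**Figure D5:**
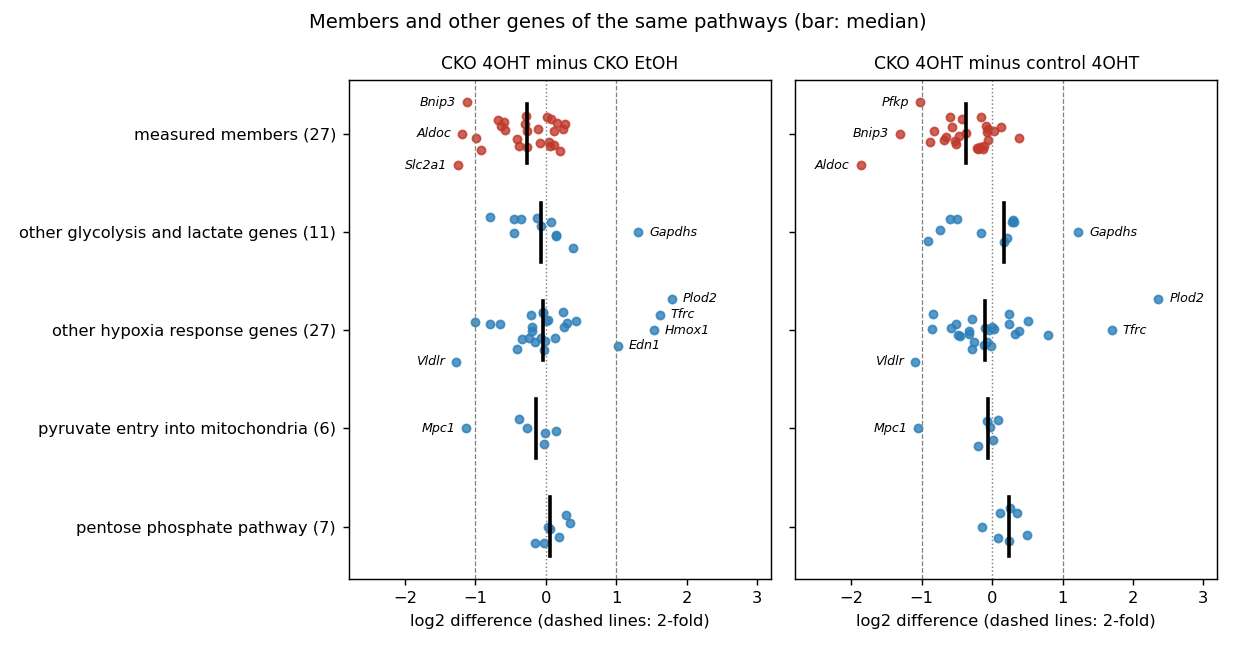
Log2 differences of the measured members and of 4 lists of other pathway genes in CKO 4OHT against CKO EtOH (left) and against control 4OHT (right), with 1 point a gene, a bar at the median, and names for genes past 2-fold. The members' points lie mostly below 0, while those of the further hypoxia genes spread to both sides, with Plod2 and Tfrc on the right and Vldlr on the left.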

How the data were processed

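The deposited table holds 1 intensity for each of 22626 probe sets and 4 arrays on a linear scale, from 2.66 to 7167, made by the authors with RMA, per the submitters' processing notes. RMA brings the arrays to like distributions and combines the probes of each probe set, so that a change common to most transcripts of 1 culture cannot be seen and differences of dim probe sets shrink. Its version is not given in the sources used. Array medians lay between 19.95 and 20.22, and the number of arrays, 4, limits the precision.

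Log2 was taken with no pseudocount, in Python 3.11.15 with pandas 2.3.3. Probe sets were named by the platform annotation, where 20380 name 1 gene, 691 several, and 1555 are not listed. Each gene was read from its probe set of highest mean log2 value, among those that name no other gene, and counted as measured when its highest value reached 20.04, the table's median. A difference counted at 2-fold or more. Values are given for all members past 2-fold, for paralogs and for key genes, and list genes were named when past 2-fold. The counting was run on simulated data with little noise and shifts well past 2-fold. This checks the code and not values close to the threshold. Alternatives changed the fold, the level filter, the probe set, the scaling and the pseudocount. Members and lists were chosen with earlier results of these data known. Promoter sequences are from RefSeq, GRCm38.p6, which held 32 of the 34 listed genes, all but Ndrg1 and Bnip3l.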

Additional observations from a re-analysis of the deposited data

Results flagged for a closer look

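For 5 members the difference between 4OHT and EtOH cultures had opposite signs in CKO and control cells and lay at least 2-fold apart. These were Aldoc (-1.19 in CKO cells and 1.01 in control cells, a gap of -2.20), Bnip3 (-1.12 and 0.30, a gap of -1.42), Egln3 (-0.11 and 1.15, a gap of -1.27), Slc16a3 (-0.63 and 0.62, a gap of -1.25) and Pfkp (-0.98 and 0.02, a gap of -1.00). The difference was not tested, since each group has 1 array. The values of Pfkp in control cells and of Egln3 in CKO cells are near 0, so their signs carry little. Mki67 and Krt1 were also lowest in CKO 4OHT, at 126 and 21.8, while Krt10, at 249, was not, and their part in these gaps was not tested.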

How the results depend on the processing

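Of 110 values recomputed for the counts and medians of members under the alternatives, 98 stayed within 1.5 times the count or 0.1 of the median. Those under the stricter level filter are among the 98 and could not move. At 1.5-fold in place of 2-fold, the lower members became 8 against CKO EtOH and 8 against control 4OHT, the higher ones became 4 for control 4OHT against control EtOH and 1 for CKO EtOH against control EtOH, and in CKO 4OHT 5 members lay below all 3 other arrays by 1.5-fold or more. With a pseudocount of 16, which shrinks differences of dim genes, 1 member was lower against CKO EtOH (Slc2a1), 0 were higher in control 4OHT against control EtOH, and in CKO 4OHT 0 lay below all 3 others by 2-fold or more. With the median of all probe sets, 0 were higher in control 4OHT against control EtOH. The count of members that in CKO 4OHT lay below all 3 others by 2-fold or more, 1 in the main setting, was 2 after quantile normalization, 0 with arrays centred on the median of measured genes, and 2 with control 4OHT left out. The median of the members ranged over the alternatives from -0.29 to -0.20 against CKO EtOH and from -0.42 to -0.34 against control 4OHT. No member's difference of 2-fold or more changed sign, but 12 recomputed values fell under 2-fold. With the median of all probe sets these were Aldoc at -0.59 against CKO EtOH and at 0.70 for control 4OHT against control EtOH, and Egln3 at 0.89 there and at -0.91 for the gap between genotypes. With the pseudocount they were Aldoc at -0.91 and Bnip3 at -0.95 against CKO EtOH, Pfkp at -0.95 against control 4OHT, Aldoc at 0.86 and Egln3 at 0.87 for control 4OHT against control EtOH, and the gaps of Egln3 (-0.95), Slc16a3 (-0.84) and Pfkp (-0.92). A stricter level filter could not move any count or median, since every measured member reached the filter on every array. With no level filter Car9 and Pfkfb3 joined, and no count moved. No paired analysis was possible because each group has 1 array and the labels give no replicate numbers. Signal over background is unknown, since the table carries no detection calls, and values near the filter, as for P4ha1 and Slc16a3, are the least certain.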

Other observations

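Pyruvate reaches the mitochondrial matrix through a carrier, of which Mpc1 is a subunit, and is turned to acetyl-CoA by the pyruvate dehydrogenase complex. Mpc1 was at 170 and 190 in control cells with EtOH and 4OHT, and at 200.2 and 91.6 in CKO cells, with differences of -1.13 against CKO EtOH and -1.05 against control 4OHT. It was the 1 gene of 6 measured on this list that differed by 2-fold, and it was read by a single probe set. Of all measured genes, 1.86% and 2.24% were lower by as much in these comparisons. Dlat, a core subunit of the complex, was at 164, 163, 173 and 172 on the arrays in that order, and Pdhb was at 373, 344, 343 and 336. Of 7 measured genes of the pentose phosphate pathway, which draws glucose phosphate off into NADPH and ribose, none differed by 2-fold in any comparison. Of all measured genes, 1.78% were 2-fold higher and 1.86% lower against CKO EtOH, and 1.45% and 2.24% against control 4OHT. The median of the 7 genes was 0.07 against CKO EtOH and 0.25 against control 4OHT. Pgd, an oxidative enzyme of that pathway, was at 664, 568, 642 and 729, highest in CKO 4OHT.

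Txnip, an inhibitor of glucose uptake whose gene is turned on by glucose, was at 861, 861, 832 and 481. It was lower in CKO 4OHT by -0.79 against CKO EtOH and -0.84 against control 4OHT. Txnip, Car12, Cited2 and Me1, with Dlat, Pdhb and Pgd, were named after their values were seen. Car12, a carbonic anhydrase, was at 45.5 in CKO 4OHT against 68.4 to 91.0, just short of 2-fold against CKO EtOH at -1.00. Cited2, a Hif1a target that limits Hif1a activity, was at 57.4, 98.3, 85.5 and 54.3 on the arrays in the same order, so the difference between 4OHT and EtOH was 0.78 in control cells and -0.65 in CKO cells. Me1, malic enzyme, was at 131, 223, 162 and 119, with differences of 0.76 and -0.44. These gaps of -1.43 and -1.21 run the same way as that of Aldoc and were not tested. Of the other list genes with gaps past 2-fold, Mpc1 (-1.29) ran this way too. Plod2 (2.53), Tfrc (2.30) and Gapdhs (1.39) ran the other way.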
